A study of Mus musculus with 2 samples.

Results

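The genes described here are 44 genes that cells use to copy their DNA and to divide, 25 of DNA replication and 19 of mitosis, out of the 21938 protein-coding genes with an annotated start site. The rule listed them by function, with replication and mitosis genes apart. The replication genes were Mcm2, Mcm3, Mcm4, Mcm5, Mcm6, Mcm7, Mcm10, Cdc6, Cdt1, Gins1, Gins2, Cdc45, Pcna, Rrm1, Rrm2, Tyms, Pola1, Pold1, Pole, Rfc2, Rfc4, Orc1, Orc6, E2f1 and E2f2. The mitosis genes were Mki67, Top2a, Cdk1, Ccna2, Ccnb1, Ccnb2, Aurka, Aurkb, Plk1, Bub1, Bub1b, Cenpe, Cenpf, Kif11, Kif23, Birc5, Cdc20, Ube2c and Foxm1.

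Chromatin accessibility of these genes was compared between hematopoietic stem cells (HSCs) of young and aged C57BL/6 mice by single-cell ATAC-seq, in which a transposase cuts open chromatin in each nucleus and every sequenced fragment carries the barcode of its cell. Both libraries were made from bone marrow cells sorted as negative for the IL-7 receptor (written IL-7 in the labels), lineage markers, CD34, CD48 and Flt3 and positive for Sca-1, c-kit and CD150. Young HSCs came from mice at 10 weeks and Aged HSCs from mice at 20 months of age, and the study's methods describe female mice with no transgene or treatment. The comparison asks whether the chromatin of cell cycle genes differs between HSCs of the 2 ages. How many animals went into a library is not given in the sources used here, and with 1 library per age there was no biological replicate. No test between ages was therefore possible, and every interval below covers counting error only.

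Before a cell copies its DNA, the origin recognition complex (ORC) with Cdc6 and Cdt1 loads the ring of Mcm2 to Mcm7 onto origins, a step called licensing. Cdc45 and the GINS complex then join the ring to make the helicase, and the polymerases, the clamp Pcna and its loader RFC follow. Transcription of replication genes is classically driven by E2F factors in late G1 and S phase. Mitosis genes peak later, in G2 and mitosis, through a promoter element called the CHR, which is bound by the MuvB core of the DREAM complex, often with CCAAT boxes bound by NF-Y beside it. Most HSCs of adult marrow are in G0, outside the cell cycle, when RNA of both groups is low.

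After filtering, 4887 Young HSCs with 50069575 unique fragments and 3405 Aged HSCs with 38663214 remained, at medians of 9890 and 11020 fragments per cell. Values are given as fragments per 1000000 in-peak fragments (FPM), where peaks took 69.2% of young and 67.6% of aged fragments, and 1 fragment is worth 0.0289 FPM in Young and 0.0382 FPM in Aged HSCs. The libraries differed in quality, with a median enrichment at transcription start sites (TSSs) of 5.32 and 4.92 and a share of short fragments (shorter than the DNA wound around a nucleosome) of 59.8% and 55.0%, and the part of these differences in the results was not tested. Cells with an excess of piled fragments, which can be pairs of cells, made up 4.17% and 7.31% and were kept. Of the called barcodes, 28 had the same sequence in both libraries. Without the cell call, 5010 and 3536 barcodes fell within the depth limits. Promoters of the 10 HSC markers had median levels of 18.9 and 17.6 FPM, with the annotated 5′ end of Mecom at 0.519 and 0.535 FPM, whereas the 4 T cell markers (0.433 to 2.11 and 0.268 to 0.727 FPM) and the 5 granulocyte and monocyte markers (0.577 to 2.86 and 0.650 to 2.71 FPM) were low. The T cell markers summed to 4.21 FPM in Young and 1.91 FPM in Aged HSCs. The 3 multipotent progenitor markers summed to 55.9 FPM in Young and 43.6 FPM in Aged HSCs, and the 4 megakaryocyte markers, open in both, to 139.0 and 126.5 FPM, and the part of these cell types in the results was not tested. The 5 B cell markers ranged from 0.346 to 13.5 FPM in Young and from 0.229 to 15.1 FPM in Aged HSCs, and the 4 erythroid markers from 0.808 to 26.2 and from 0.535 to 25.2 FPM.

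The promoters of the 2 groups carried different sequence elements. E2F elements (TTTCCCGC, TTTGGCGC, TTTCGCGC or TTTGCCGC on either strand, from 250 bases before to 50 after the TSS) were found at 11 of 25 replication promoters (44%) and at 1 of 19 mitosis promoters (5.26%), that of Cdk1, beside 2.79% of all protein-coding promoters. CHR elements (TTTGAA or TTCGAA on either strand) were found at 15 mitosis promoters (78.9%) and 4 replication promoters (16%), beside 18.02% of all promoters. CCAAT boxes were present at 17 promoters of each group, which is 68% of replication and 89.5% of mitosis promoters, beside 39.0% of all. All 15 mitosis promoters with a CHR also held a CCAAT box, as did 2 replication promoters, beside 7.99% of all promoters. A match is a string of letters and not a bound site, and an absent match says only that these letters are not in the window. The TSS here is the annotated 5′ end of the gene. The most accessible annotated start lay further downstream at Rrm2 (511 bp), Mcm7 (607 bp), Rfc2 (1324 bp) and Gins1 (4194 bp). For these genes, matches such as the CHR of Gins1 and Rfc2 are not those of the accessible start.

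The sequences below are promoters that show these elements or that stood out between the ages. They run from 200 bases before to 30 after the TSS in GRCm38 (mm10), are written 5′ to 3′ on the strand of the gene, and have the E2F, CHR and CCAAT matches within that stretch in capitals. Positions count the TSS as 0 and give the first base of the match on the strand of the gene. Mcm5 and Mcm6, subunits of the ring helicase, show the E2F type:
Mcm5, chr8:75109369-75109598, plus strand: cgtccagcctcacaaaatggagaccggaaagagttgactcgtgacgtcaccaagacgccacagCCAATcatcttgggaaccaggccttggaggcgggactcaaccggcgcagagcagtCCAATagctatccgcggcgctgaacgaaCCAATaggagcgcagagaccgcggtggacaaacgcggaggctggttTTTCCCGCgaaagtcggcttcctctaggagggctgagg
Mcm6, chr1:128359635-128359864, minus strand: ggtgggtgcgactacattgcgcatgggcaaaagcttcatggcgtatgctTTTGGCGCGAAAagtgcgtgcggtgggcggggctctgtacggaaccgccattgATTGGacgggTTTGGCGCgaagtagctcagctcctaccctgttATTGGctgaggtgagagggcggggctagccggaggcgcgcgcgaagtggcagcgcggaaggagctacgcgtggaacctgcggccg
The E2F matches of Mcm5 stood at -213, -209 and -8, the first pair of which lies before the printed stretch, and those of Mcm6 at -151, -147 and -88, where the first pair overlaps. CCAAT boxes stood at -137, -82 and -54 in Mcm5 and at -98 and -55 in Mcm6. Cdk1, the kinase that starts mitosis, Ccnb2, a cyclin that activates it, and Kif11, the motor that pushes the spindle poles apart, show the CHR type:
Cdk1, chr10:69352909-69353138, minus strand: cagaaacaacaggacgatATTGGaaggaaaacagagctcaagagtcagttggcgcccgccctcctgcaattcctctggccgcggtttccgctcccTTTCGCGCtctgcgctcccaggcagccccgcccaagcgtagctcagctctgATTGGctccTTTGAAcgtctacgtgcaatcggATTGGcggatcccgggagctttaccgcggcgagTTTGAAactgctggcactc
Ccnb2, chr9:70421518-70421747, minus strand: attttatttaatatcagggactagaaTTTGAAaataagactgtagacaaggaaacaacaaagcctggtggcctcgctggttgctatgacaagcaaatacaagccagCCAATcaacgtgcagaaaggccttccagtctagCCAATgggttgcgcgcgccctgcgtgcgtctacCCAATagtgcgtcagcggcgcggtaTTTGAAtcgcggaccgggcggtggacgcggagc
Kif11, chr19:37376203-37376432, plus strand: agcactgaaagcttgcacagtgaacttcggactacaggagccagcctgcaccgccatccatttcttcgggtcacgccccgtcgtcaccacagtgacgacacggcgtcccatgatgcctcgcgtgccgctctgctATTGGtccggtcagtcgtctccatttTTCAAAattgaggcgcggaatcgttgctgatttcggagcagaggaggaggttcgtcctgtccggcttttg
Here a CHR lay within 50 bases of the TSS in each, at -45 and 12 in Cdk1, at -3 in Ccnb2 and at -40 in Kif11, with a CCAAT box at -54, -28 and -66 on its upstream side. Cdk1 also held the E2F match, at -105. A CHR within 50 bases of the TSS was present at 14 of 19 mitosis promoters (73.7%) and 3 of 25 replication promoters (12%), beside 4.57% of all promoters. Mcm10, which links the helicase to the polymerases, and Cdc6, the loader of the Mcm ring, are the 2 replication genes whose promoters were past 1.2-fold lower in Aged HSCs:
Mcm10, chr2:5012762-5012991, minus strand: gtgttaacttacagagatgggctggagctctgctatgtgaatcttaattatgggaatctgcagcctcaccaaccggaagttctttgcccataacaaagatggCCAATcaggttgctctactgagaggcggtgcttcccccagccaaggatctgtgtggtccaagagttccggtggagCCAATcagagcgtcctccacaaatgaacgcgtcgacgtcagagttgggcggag
Cdc6, chr11:98907601-98907830, plus strand: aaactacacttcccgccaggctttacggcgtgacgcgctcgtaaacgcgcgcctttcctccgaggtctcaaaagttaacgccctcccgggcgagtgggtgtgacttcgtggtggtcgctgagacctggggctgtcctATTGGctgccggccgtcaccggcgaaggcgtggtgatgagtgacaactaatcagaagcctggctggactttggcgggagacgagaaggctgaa
Mcm10 held CCAAT boxes at -98, -23 and 32 and no E2F or CHR match, and Cdc6 a CCAAT box at -63 and an E2F match at 41. The box at 32 and the match at 41 lie beyond the printed ends. Both groups of promoters were rich in CpG, with a median of 25 CpG in 300 bases in each, against 11 over all promoters and 21 over the 10490 promoters with at least 1000 fragments in both libraries together.

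Promoters of both groups were open in HSCs of either age. Within 1 kb on either side of the TSS, replication promoters had a median level of 43.1 FPM in Young and 38.9 FPM in Aged HSCs, and mitosis promoters of 43.1 and 39.7 FPM. All protein-coding promoters had medians of 14.3 and 15.1 FPM, and a window of this size in the genome outside peaks had 0.335 and 0.360 FPM. Of the members, 23 of 25 replication and 19 of 19 mitosis promoters were above the median of all promoters, and 17 and 12 were in the upper quartile.

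**Figure D1:**
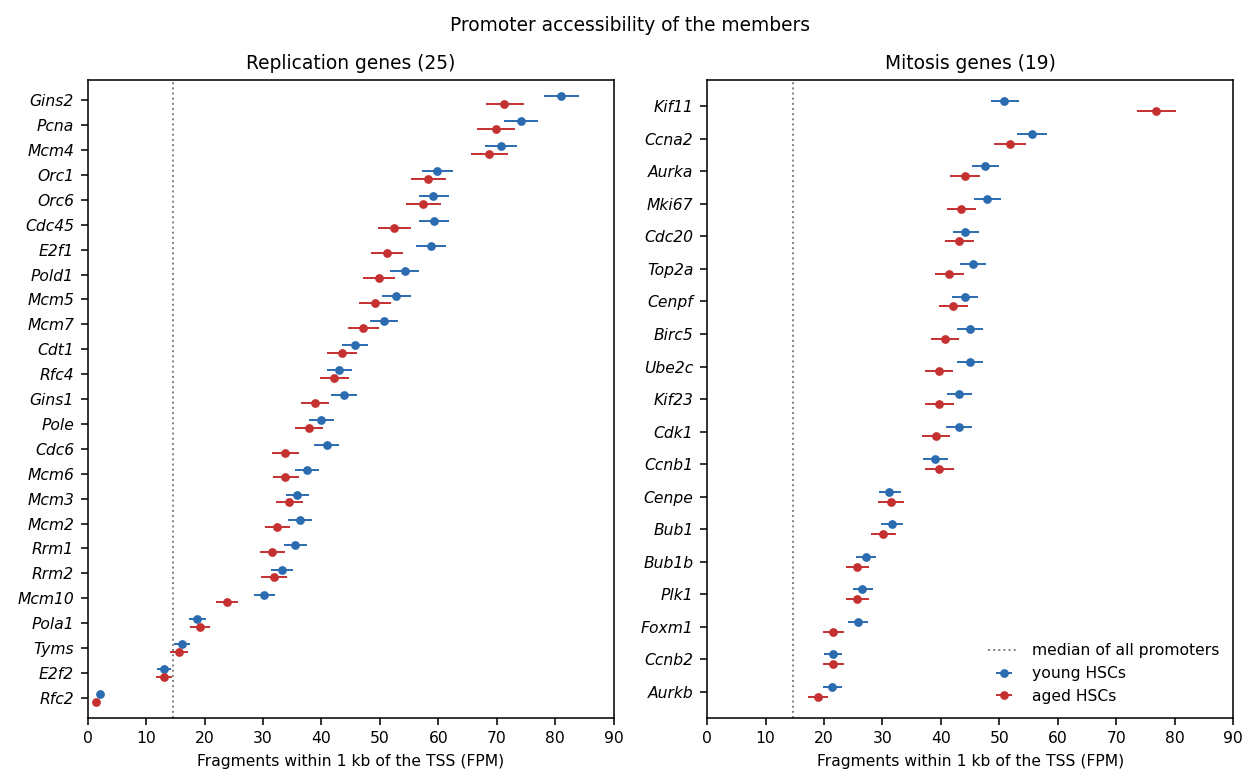
Level of each member's promoter (fragments within 1 kb of the TSS, in FPM, horizontal axis) in Young (blue) and Aged HSCs (red), 1 library each, with exact Poisson 95% intervals that cover counting error. The dotted line is the median of all protein-coding promoters over both libraries (14.7 FPM). The aged point lies left of or on the young point for most members, and Kif11 is the member with its aged point far to the right (76.9 against 50.9 FPM).

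Cut sites of both groups were gathered on a short stretch before the TSS. The bin of 20 bp with the most cut sites was centred at -30 bp from the TSS for replication genes and at -70 bp for mitosis genes, in both libraries. Mitosis promoters were the more one-sided, with 39.1 cut sites per gene (per 1000000 in-peak fragments) in the 250 bp before the TSS and 14.0 in the 250 bp after it in Young HSCs, whereas replication promoters had 35.0 and 19.6. In Aged HSCs these values were 37.6 and 13.6 for mitosis and 32.3 and 17.8 for replication genes, with the same imbalance. All protein-coding genes shared the direction, with their highest bin at -50 bp in both libraries. They had 13.4 cut sites before and 9.40 after the TSS in Young HSCs, and 12.4 and 8.84 in Aged HSCs. Summits lay within 250 bp of the annotated TSS for all 19 mitosis genes and 21 of 25 replication genes.

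**Figure D2:**
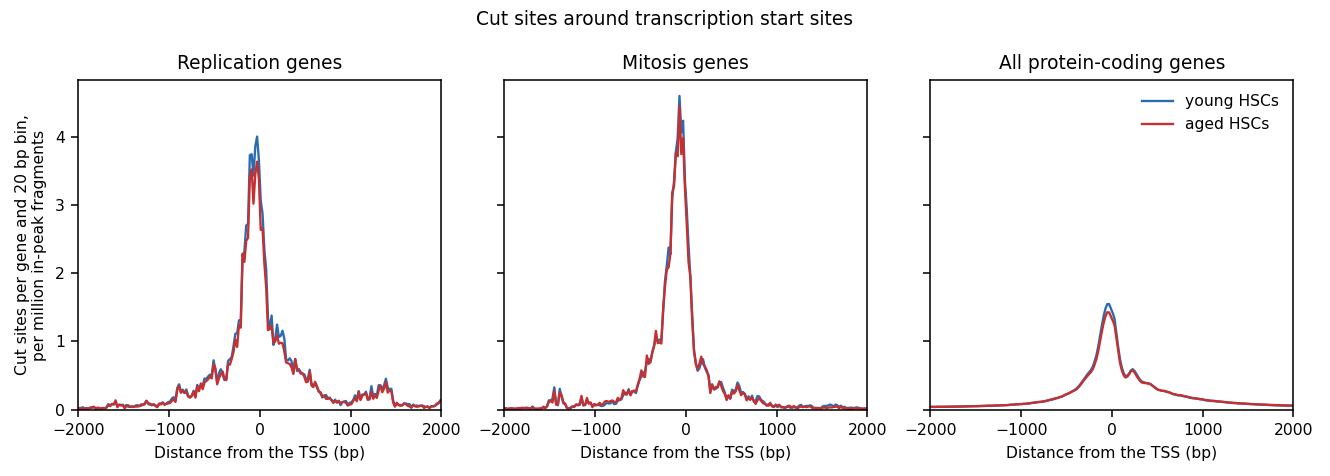
Mean cut sites per gene and 20 bp bin, per 1000000 in-peak fragments (vertical axis), by distance from the TSS (horizontal axis, bp) for the 25 replication genes, the 19 mitosis genes and all protein-coding genes, in Young (blue) and Aged HSCs (red). Both groups peak just before the TSS at more than the height of all genes. At the highest bin of each panel the aged line lies slightly under the young line.

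Among replication genes the most open promoters, by the mean of both libraries, were those of Gins2, Pcna, Mcm4, Orc1 and Orc6. Gins2, a GINS subunit, had 81.0 FPM in Young (95% interval 78.1 to 84.1) and 71.3 FPM in Aged HSCs (68.1 to 74.6). Pcna, the sliding clamp that holds polymerases on DNA, had 74.1 and 69.8 FPM. Mcm4, a subunit of the ring, had 70.7 and 68.6 FPM, from a window it shares with the start of the DNA repair kinase gene Prkdc 466 bp away. The ORC subunit genes Orc1 and Orc6 followed at 59.8 and 59.1 FPM in Young and 58.3 and 57.4 FPM in Aged HSCs. Their windows hold the starts of the protein-coding neighbours Prpf38a and Vps35, and fragments of paired starts cannot be told apart, as also at Mcm7, Gins1, Cdc45 and Pole. The lowest were Tyms, which makes thymidylate, at 16.1 and 15.6 FPM, E2f2 at 13.0 FPM in both, and Rfc2 at 2.14 and 1.45 FPM.

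Rfc2, a subunit of the clamp loader, was low at its annotated 5′ end only. Its most accessible annotated start, 1324 bp downstream, had 26.03 FPM in Young and 21.9 FPM in Aged HSCs. E2f2, an activator of the E2F family, was low at its TSS but had an open region at chr4:136177551-136178430, in an intron and 5597 bp from the TSS, at 56.5 FPM in Young and 45.3 FPM in Aged HSCs. Its relative E2f1 had 58.7 and 51.2 FPM at the promoter itself.

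Mitosis promoters spanned a narrower range, from 21.4 to 55.5 FPM in Young and from 18.9 to 76.9 FPM in Aged HSCs. In Young HSCs the highest was Ccna2, a cyclin of S phase and G2, with 55.5 FPM against 51.8 FPM in Aged HSCs. Kif11 was next at 50.9 FPM in Young HSCs and first in Aged HSCs at 76.9 FPM. Mki67, which encodes the proliferation antigen Ki-67, had 47.9 and 43.5 FPM. Aurka, a centrosome kinase whose window holds the start of Cstf1, had 47.5 and 44.1 FPM, and Cdc20, an activator of the anaphase-promoting complex, had 44.2 and 43.1 FPM. Lowest were Foxm1, a transcription factor of G2 genes, at 25.8 and 21.6 FPM, Ccnb2 at 21.5 and 21.6 FPM, and Aurkb, a kinase of the chromosomal passenger complex, at 21.4 and 18.9 FPM. Neighbours in the order were mostly not separable, since the intervals of 18 of 24 adjacent pairs of replication promoters and 15 of 18 of mitosis promoters overlapped in Young HSCs, and 19 and 13 in Aged HSCs.

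Replication promoters were slightly less accessible in Aged than in Young HSCs. Their fragments summed to 1092 FPM in Young and 1008 FPM in Aged HSCs, a log2 ratio of aged to young of -0.12 (95% interval -0.14 to -0.093). The median ratio over the 25 was -0.10, 24 of 25 lay below 0, and for 12 the whole interval was below 0. Of these promoters 2 were at least 1.2-fold lower with an interval that excludes no difference, Mcm10 and Cdc6, and 0 were at least 1.2-fold higher. Over the 15024 protein-coding promoters with at least 100 fragments in both libraries together, 3.32% were lower and 9.19% higher by the same rule, with a median of -0.055, 65.4% below 0 and 24.3% with the whole interval below 0. Scaled to fragments at all promoters instead of peaks, the summed ratio was -0.065 and Mcm10 was the 1 member past 1.2-fold. In longer fragments the sum was -0.17 and 6 were past it, Mcm7, Mcm10, Gins1, Gins2, Tyms and Orc6, without Cdc6. All promoters had a median of -0.079 in longer fragments. The share of 3.32% above is of the main setting, so the 6 have no background share beside them.

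Mitosis promoters had a median ratio of -0.10 as well, with 15 of 19 below 0 and 9 intervals wholly below 0. Their sum went from 736 to 716 FPM, a ratio of -0.039 (-0.066 to -0.012), which was -0.099 without Kif11 and turned to 0.012 when scaled to fragments at all promoters. By the rule above, 0 were at least 1.2-fold lower and 1, Kif11, was higher. Promoters as deep as most members gave a closer background. Of the 10490 protein-coding promoters with at least 1000 fragments, among them 22 replication and 19 mitosis genes, the median was -0.075 (quartiles -0.13 and -0.011), 78.1% were below 0, 31.3% had the whole interval below 0, 1.9% were past 1.2-fold lower and 1.8% past 1.2-fold higher. The 22 and 19 members among them had medians of -0.11 and -0.10, inside these quartiles.

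**Figure D3:**
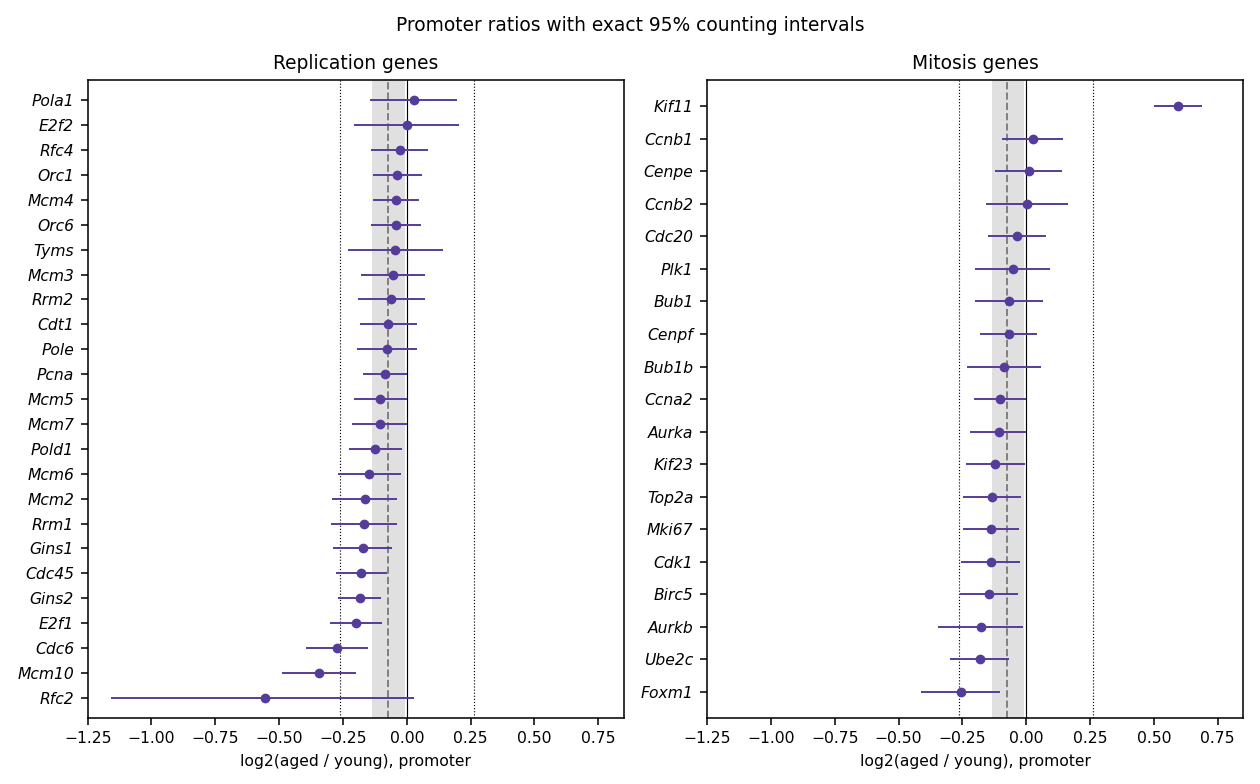
log2 ratio of Aged to Young HSCs at each promoter (horizontal axis) with exact 95% counting intervals, members in order of their ratio. The dashed line and grey band are the median (-0.075) and quartiles of the 10490 protein-coding promoters with at least 1000 fragments, and dotted lines mark 1.2-fold. Most members lie in or near the band. Rfc2 (-0.56, with an interval that includes 0), Mcm10, Cdc6 and Foxm1 lie furthest to its left and Kif11 far to its right.

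Within the licensing and helicase genes, Mcm10 went from 30.2 FPM (28.4 to 32.1) in Young to 23.8 FPM (22.0 to 25.8) in Aged HSCs, from 1047 and 623 fragments. Its ratio was -0.34 (-0.49 to -0.20), and between -0.50 and -0.28 over the alternative settings. Both intervals of its level stood apart, and the window at chr2:5011791-5013791 held no other start. Cdc6 went from 40.9 to 33.8 FPM, a ratio of -0.27 (-0.40 to -0.15), at chr11:98906801-98908801. Its ratio was -0.29 in short fragments and -0.10 (-0.36 to 0.15) in longer ones. The 6 subunits of the ring itself had ratios from -0.16 (Mcm2) to -0.042 (Mcm4), with Mcm6 at -0.15, Mcm7 at -0.11, Mcm5 at -0.10 and Mcm3 at -0.055. The direction was not fixed for 3 of the 6, since Mcm5 was at 0.015 when cells were thinned to 3000 in-peak fragments each, Mcm3 at 0.051 in longer fragments and Mcm4 at 0.013 in short ones. Gins1 was at -0.17 in its window, which holds the start of Abhd12. At its own most accessible start, 4194 bp from the 5′ end, it was at -0.028 (-0.15 to 0.097). Within 250 bp of the 5′ end the ratio was -0.88. The peak of the Gins1 window, chr2:150904351-150905170, lay mostly beyond those 250 bp, so -0.88 is not a value of that peak. Gins2 was at -0.19, Cdc45 at -0.18 and Cdt1, which brings the ring to ORC, at -0.072.

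Among the replication genes that make nucleotides and those of the fork, Rrm1 and Rrm2, the large and small subunits of ribonucleotide reductase, had ratios of -0.17 and -0.060, and Tyms -0.045. The polymerase genes Pold1 and Pole were at -0.12 and -0.077, and Pola1, the catalytic subunit of the polymerase that lays primers, was at 0.028 (-0.14 to 0.20), the 1 replication promoter above 0. Pcna was at -0.085 and Rfc4 at -0.028. Rfc2 had -0.56 at its 5′ end from only 74 and 38 fragments (-1.16 to 0.028) and -0.25 (-0.40 to -0.098) at its accessible start. E2f1 was at -0.20 (-0.30 to -0.099) while E2f2 stood at the same level in both libraries (-0.00041, interval -0.21 to 0.21).

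Among mitosis genes, the transcription factor gene Foxm1 had the lowest ratio, -0.26 (-0.41 to -0.10), just short of 1.2-fold, from 894 and 565 fragments in a window shared with Rhno1. It was at -0.16 in short and -0.45 in longer fragments, and past 1.2-fold when scaled to all nuclear fragments (-0.29). Ube2c, the ubiquitin-conjugating enzyme of the anaphase-promoting complex, was at -0.18 (-0.30 to -0.068) and Aurkb at -0.18 (-0.34 to -0.012). Birc5, another passenger subunit, Cdk1, Mki67 and Top2a, a topoisomerase of mitotic chromosomes, formed a block between -0.15 and -0.13. At the other end Ccnb1 (0.025, interval -0.093 to 0.14), the kinetochore motor gene Cenpe (0.0092) and Ccnb2 (0.0046) had levels that overlapped between the ages. The remaining members, Plk1, Bub1, Bub1b, Cenpf, Cdc20, Kif23, Aurka and Ccna2, lay between -0.12 and -0.036.

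Kif11 stood apart from the other members. Its promoter had 50.9 FPM (48.5 to 53.3) in Young and 76.9 FPM (73.5 to 80.3) in Aged HSCs, from 1763 and 2010 fragments at chr19:37375403-37377403, a ratio of 0.60 (0.50 to 0.69). Of the 10490 deep promoters 20 had a ratio at least as high, Kif11 included. The nearest other annotated start was 12004 bp away. Over the alternative settings the ratio stayed between 0.50 and 0.65, with 0.64 in short fragments, 0.50 in longer ones and 0.61 without the cells with piled fragments. Promoters of chromosome 19 had a median of -0.075 over the 515 genes with at least 100 fragments, beside -0.055 over all promoters with that floor.

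The difference at Kif11 ran along the whole promoter peak. This peak, chr19:37375641-37376660, had 48.0 FPM in Young and 73.0 FPM in Aged HSCs (0.61, interval 0.51 to 0.70). All 9 bins of 100 bp with at least 100 fragments, from -700 to 199 bp of the TSS, were higher in Aged HSCs, with ratios from 0.26 to 1.03, and for 8 the interval excluded 0. The deepest bin, which starts 200 bp before the TSS, had 22.5 and 34.3 FPM. Over the gene body Kif11 had 39.0 FPM in Young and 37.2 FPM in Aged HSCs (-0.070, interval -0.19 to 0.050). The body includes the downstream side of the promoter, and beyond 1 kb of any start it was lower in Aged HSCs, at -0.23 (-0.38 to -0.088) from 980 and 629 fragments. At Mcm10 the 4 bins over that depth, from -200 to 299 bp of the TSS, were all lower in Aged HSCs, with ratios from -0.52 to -0.20, and for 2 the interval excluded 0. Its deepest bin had 19.6 and 15.8 FPM.

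**Figure D4:**
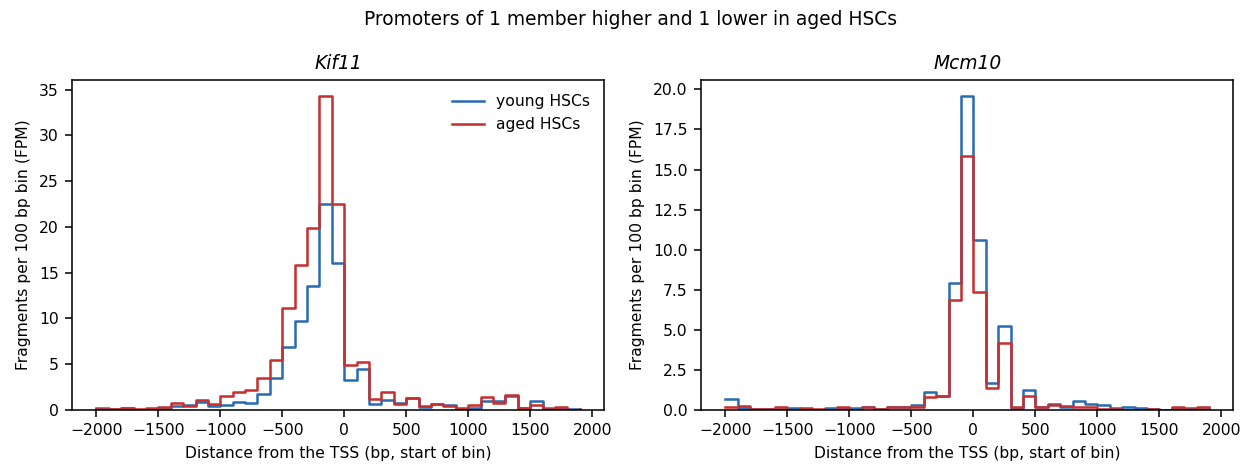
Fragments in bins of 100 bp (vertical axis, FPM) by distance of the start of the bin from the TSS (horizontal axis, bp) at Kif11 and Mcm10, in Young (blue) and Aged HSCs (red), 1 library each. At Kif11 the aged line is above the young line over the whole peak before the TSS (34.3 against 22.5 FPM in the deepest bin), and at Mcm10 it is below it (15.8 against 19.6 FPM).

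Per cell, the signal was thin and spread over many cells. With each cell thinned to 3000 in-peak fragments (4787 young and 3271 aged cells, with 100 and 134 shallower ones left out), a replication promoter fragment was present in 95.7% of Young and 94.6% of Aged HSCs and a mitosis promoter fragment in 88.6% and 87.3% (86.7% and 83.9% without Kif11). Cells held a mean of 3.26 and 3.002 replication and of 2.21 and 2.14 mitosis promoter fragments (2.05 and 1.90 without Kif11). The variance over cells divided by the mean was 1.05 and 0.987 for replication and 1.05 in both for mitosis, where counts that fall at random give 1, and whether cells differ in these promoters was not tested. Kif11 had a fragment in 15.04% (14.04 to 16.1) of Young and 21.1% (19.7 to 22.6) of Aged HSCs, and Mcm10 in 8.54% (7.77 to 9.37) and 6.24% (5.43 to 7.12). T cell genes, which should be closed, had far fewer fragments than Kif11 and Mcm10. Per 100 thinned cells in Young and Aged HSCs, Cd3e had 0.230 and 0.245 fragments, Cd3g 0.251 and 0.0917, Cd4 0.752 and 0.245, and Cd8a 0.146 and 0.0611, so 3 of the 4 were lower in Aged HSCs. These values rest on few fragments, in this order 11, 12, 36 and 7 in Young and 8, 3, 8 and 2 in Aged HSCs.

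Gene body counts include the downstream side of the promoter. Over them, most of each group was slightly lower in Aged HSCs, with single genes of either direction. Replication bodies summed to a ratio of -0.079 (-0.10 to -0.057) with a median of -0.12, and 20 of 25 lay below 0. Mitosis bodies summed to -0.099 (-0.13 to -0.065) with a median of -0.097, and 15 of 19 lay below 0. At 1.2-fold, 3 replication bodies were lower (Mcm10, Rfc2 and Mcm5) and 1 higher (Pola1), and 2 mitosis bodies were lower (Mki67 and Cdk1) and 1 higher (Cenpf). Scaled to fragments at all promoters, Mcm5 and Cdk1 were both at -0.24 and no longer past 1.2-fold. In short fragments 6 replication bodies were lower, and 0 bodies of either group were higher. In longer fragments 6 replication and 4 mitosis bodies were lower, and beyond 1 kb of start sites 6 replication bodies were lower and 3 higher. Beyond those sites the sums were -0.019 (-0.058 to 0.019) for replication and -0.15 (-0.21 to -0.085) for mitosis bodies. Over 17692 protein-coding gene bodies in the main setting, 3.61% were lower and 9.85% higher by the same rule, with a median of -0.023 and 56.0% below 0. These shares hold for the main setting only, so the counts of the other settings have no background share and describe those settings alone. The median of all bodies was -0.043 in short fragments, -0.048 in longer ones and 0.017 beyond 1 kb of start sites. Without fragments in peaks the replication sum was 0.016 and its median 0.0058, beside a median of 0.067 over all gene bodies counted this way. In the genome outside peaks the level itself went from 0.167 to 0.180 FPM per kb (0.11).

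Mki67 had the lowest ratio of the mitosis bodies. Its body went from 35.2 to 25.7 FPM (-0.46, interval -0.59 to -0.32), and the part beyond 1 kb of any start had a ratio of -0.59 (-0.78 to -0.40) from 713 and 358 fragments. An intronic peak at chr7:135705111-135705500, 11055 bp into the gene, went from 2.97 to 1.11 FPM (-1.42, interval -2.07 to -0.82). The body without its peaks was still at -0.51, so the difference was not confined to those peaks, whereas the Mki67 promoter was at -0.14. Cdk1 had 34.3 and 28.0 FPM over its body (-0.29, interval -0.43 to -0.16) and -0.33 without its peaks.

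Cenpf, a large kinetochore protein gene, went the other way. Its body had 25.3 FPM in Young and 30.6 FPM in Aged HSCs (0.27, interval 0.13 to 0.41), beside -0.069 at its promoter. An intronic peak at chr1:189645391-189645680 had 1.82 and 2.75 FPM (0.60, interval 0.091 to 1.11), and without its peaks the ratio was 0.60. Among the other mitosis bodies Aurka and Cenpe were next highest at 0.051 and 0.036, with intervals that include 0, and Foxm1, next lowest after Mki67 and Cdk1, was at -0.19 (-0.43 to 0.038).

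Pola1 is the longest member, 327 kb on the X chromosome. Its body had 56.3 FPM in Young and 68.4 FPM in Aged HSCs, a ratio of 0.28 (0.19 to 0.38). Per kb this was 0.172 and 0.209 FPM, close to the 0.167 and 0.180 FPM per kb of the genome outside peaks. Bodies of X-linked genes without their peaks had a median ratio of 0.17 over 541 genes and those of autosomal genes 0.065 over 16695, beside 0.31 for Pola1. Scaled to all nuclear fragments, neither Pola1 nor Cenpf was past 1.2-fold over its body. A peak that holds both exon and intron sequence of Pola1 at chrX:93596981-93597480 had 1.21 FPM in Young and 3.21 FPM in Aged HSCs, from 42 and 84 fragments (1.41, interval 0.86 to 1.98).

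Mcm10 was past 1.2-fold lower at both its promoter and its body, with 20.3 and 15.1 FPM over the body (-0.42, interval -0.60 to -0.24). Beyond 1 kb of any start the ratio was -0.20 (-0.65 to 0.25) from 108 and 71 fragments. That interval holds both 0 and the ratio of the whole body, so these counts do not place the difference within the gene. Rfc2 was at -0.35 (-0.46 to -0.23) over its body, with an intronic peak at chr5:134584751-134585170 that went from 6.09 to 3.48 FPM (-0.81, interval -1.18 to -0.45). Mcm5 was at -0.29 (-0.49 to -0.099) and at -0.16 (-0.43 to 0.12) without its peaks. Beyond 1 kb of any start Mcm5 was at -0.59 (-0.96 to -0.22) from 183 and 92 fragments, and Rfc2 at -0.53 (-0.73 to -0.32). Cdc45 had the second highest ratio over the whole body, 0.16 (0.071 to 0.24), although its promoter was at -0.18. This came with an intronic peak at chr16:18788551-18789770, 22826 bp into the gene, at 24.7 FPM in Young and 33.8 FPM in Aged HSCs (0.45, interval 0.32 to 0.59). Rfc4 followed at 0.086 (-0.057 to 0.23).

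**Figure D5:**
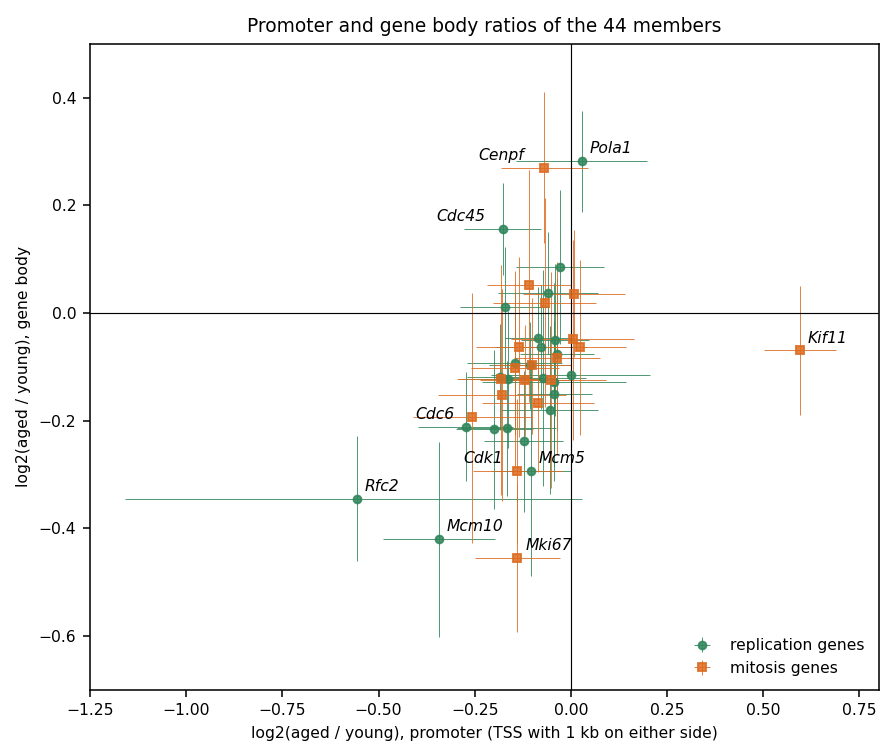
log2 ratio of Aged to Young HSCs over the gene body (vertical axis) against that at the promoter (horizontal axis) for the 44 members, circles for replication and squares for mitosis genes, with exact 95% counting intervals. The body holds the downstream side of the promoter, so the axes share fragments. Most points lie a little below and left of 0, with Kif11 to the right (0.60 at the promoter), Pola1 and Cenpf above (0.28 and 0.27) and Mki67 and Mcm10 below (-0.46 and -0.42).

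Internal peaks of the members, those beyond 1 kb of any annotated start, were few, and those past 1.5-fold lay in both directions. Introns alone held 16 of 21 replication and 11 of 14 mitosis peaks with at least 100 fragments. Of the 21 replication peaks, in 10 genes, 2 were higher in Aged HSCs and 2 lower, with a median of -0.12. Besides those of Pola1 and Rfc2, these were an intronic peak of Pole at chr5:110309841-110310350 (1.41 and 2.75 FPM, ratio 0.96) and an intronic peak of Pold1 at chr7:44547151-44547310 (2.94 and 1.87 FPM, ratio -0.65). Of the 14 mitosis peaks, in 7 genes, the 1 of Cenpf was higher and the 1 of Mki67 lower, with a median of -0.22. Over the 36192 such peaks in all protein-coding bodies 11.1% were higher and 5.6% lower, with a median of 0.013. The strongest internal peak of E2f2 described above was at -0.32 (-0.42 to -0.21), short of 1.5-fold, and a weaker one 6417 bp from its TSS was at 0.30 (0.090 to 0.51). Peaks inside a body but within 1 kb of an annotated start are not in these counts, and some were also past 1.5-fold. Lower in Aged HSCs were those of Rrm1 at chr7:102458601-102459050 (2.57 and 0.956 FPM) and Pold1 at chr7:44534241-44534660 (2.60 and 0.918 FPM). The same held for Cdk1 at chr10:69351161-69351420 (5.31 and 3.06 FPM), whereas that of Cenpf at chr1:189648581-189649130 was higher (1.56 and 3.21 FPM).

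Other genes of the pathways, listed by function and not among the 44, were mostly a little lower in Aged HSCs as well. Of 49 further replication genes 48 had enough fragments, with a median promoter ratio of -0.11, 46 below 0, 0 past 1.2-fold higher and 3 past it lower. These 3 were Prim1, the primase subunit (9.49 and 7.57 FPM, ratio -0.33), Rpa2, which coats single-stranded DNA (44.6 and 35.8 FPM, -0.32), and Timeless of the fork protection complex (39.0 and 32.5 FPM, -0.26). Of 45 further mitosis genes 44 had enough fragments, with a median of -0.086, 40 below 0, 0 higher and 1 lower, the condensin gene Ncaph (24.6 and 20.5 FPM, -0.26). Of all promoters with at least 100 fragments, the floor used for these lists, 65.4% were below 0, 3.32% past 1.2-fold lower and 9.19% past it higher. Of those with at least 1000 fragments, a floor that Prim1 and Lig1 do not reach, 78.1% were below 0, 1.9% past 1.2-fold lower and 1.8% past it higher. The highest ratios of these lists were 0.18 for the ligase gene Lig1 (-0.39 to 0.73, from 61 and 52 fragments) and 0.048 for Incenp, a passenger subunit, beside 0.60 for Kif11.

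The ratios were also set beside the sequence elements of the promoters. The 11 replication promoters with an E2F match had a median ratio of -0.072 and the 14 without one -0.14. The 15 mitosis promoters with a CHR had a median of -0.11, Kif11 included, and the 4 without one -0.046. Promoters with and without a CCAAT box had medians of -0.10 (17) and -0.096 (8) for replication and -0.085 (17) and -0.12 (2) for mitosis genes. Median levels in Young HSCs were 40.9 and 43.4 FPM for replication promoters with and without an E2F match and 43.1 and 42.0 FPM for mitosis promoters with and without a CHR.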

How the data were processed

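Unique fragments and a table of barcodes from 1 young and 1 aged scATAC-seq library (Chromium Next GEM Single Cell ATAC v1.1) were used. The deposited barcode tables hold counts made by the authors with Cell Ranger ATAC on mm10, read pairs or fragments per barcode, not normalized. Their peak calls were not used here beyond the count of in-peak fragments per barcode. Barcodes called as cells with 3000 to 20000 in-peak fragments were kept, and possible doublets (cells with loci covered by at least 3 fragments, q under 0.01) were kept in the main values. Peaks were called anew on cut sites in windows of 151 bp against 10000 bp around each base (Poisson, q under 0.001) and joined into 1 set for both libraries. Each fragment was counted once if 1 or both ends fell in the window, at the 5′ end of a GENCODE M21 gene with 1 kb on either side, or in the gene body. Sequences are from GRCm38.p6, the same build as mm10, with RefSeq's chromosome files. Values were scaled to in-peak fragments. Ratios have exact binomial (Clopper-Pearson) and levels exact Poisson 95% intervals, and a member counted as past 1.2-fold only with an interval excluding 1 and at least 100 fragments in sum. Depth was 53786133 young and 48333115 aged unique fragments, and PCR duplicates were removed by the authors.

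Named with values were, in each group, the 5 highest and 3 lowest promoters by level, the 3 highest and 3 lowest ratios at promoters and bodies, every member past 1.2-fold and every internal peak past 1.5-fold, with the other members given by ratio. The members and gene lists were chosen with earlier results of these data known. Alternatives varied the scaling, cells, fragment length, window, start site, depth per cell and minimum count. The code was tested on simulated data. Python 3.11.15, numpy 2.4.6, pandas 2.3.3, scipy 1.17.1 and numba 0.67.0 were used.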

Additional observations from a re-analysis of the deposited data

How the results depend on the processing

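With 1 library per age, the spread between animals is unknown, and intervals cover counting error only. No paired analysis was possible because the ages share only replicate number 1 and there is no second pair. Intervals are wide wherever fragments are few, as at the 5′ end of Rfc2 and at weak internal peaks. Of the single values of members over the alternatives, 637 promoter values stayed within their interval, 22 moved and 1 reversed, and 527 body values stayed, 41 moved and 4 reversed, with causes not tested. Reversed here means a change of sign where the interval excluded 0. The counts of values that stayed include the alternative without a minimum count, which cannot change a ratio. They also include the study's own cell limits, which kept 4886 of 4887 young and 3403 of 3405 aged cells and so could hardly change one. The same holds for 2 further alternatives. Counting any overlap with the window left the median of all promoters at -0.055. Scaling to the in-peak fragments of the table of barcodes moved every ratio alike and brought that median to -0.052. Counting every change of sign, 38 promoter values of 16 members and 32 body values of 19 members were of the other sign, 2 and 12 of them outside their interval. The sets without Kif11 and of promoters with at least 1000 fragments were chosen after seeing the data. Where no share of all genes stands beside them, counts of members past 1.2-fold below have no background and describe the setting only.

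Scaled to all nuclear fragments, which shifted the median of all promoters to -0.088 from -0.055, the summed and median log2 ratios were -0.15 and -0.14 for replication promoters, -0.072 and -0.13 for mitosis promoters, and -0.11 and -0.15 for replication bodies. Past 1.2-fold there were then 1 lower mitosis promoter (Foxm1), 0 higher replication bodies and 0 higher mitosis bodies. Scaled to fragments at all promoters, which brought that median to -0.0042, sums and medians were -0.065 and -0.054 for replication promoters, 0.012 (reversed, interval -0.016 to 0.039) and -0.051 for mitosis promoters, -0.029 and -0.069 for replication bodies and -0.048 and -0.047 for mitosis bodies, with 1 lower replication promoter (Mcm10), 1 lower mitosis body (Mki67), and the Mcm5 body no longer past 1.2-fold.

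In short fragments the sums were -0.079 for replication promoters, -0.011 for mitosis promoters and -0.13 for mitosis bodies, whose median was -0.14, with 0 higher and 6 lower replication bodies and 0 higher mitosis bodies. In longer fragments, those that span at least a nucleosome, they were -0.17 (median -0.15) for replication and -0.082 (median -0.17) for mitosis promoters, with 6 and 2 lower promoters (in mitosis Foxm1 and Ube2c), and with 0 higher and 6 lower replication bodies and 4 lower mitosis bodies. All promoters had medians of -0.046 in short and -0.079 in longer fragments, and all gene bodies -0.043 and -0.048. Windows of 500 bp or 250 bp on either side, and thinned cells, each gave 1 lower mitosis promoter, again Foxm1. The medians of all promoters were then -0.067, -0.080 and -0.059. Without Kif11 the mitosis promoters summed to -0.099, with 0 higher.

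Beyond 1 kb of start sites the bodies summed to -0.019 (-0.058 to 0.019) for replication genes, with a median of -0.18, 3 higher and 6 lower. For mitosis genes the sum was -0.15 (-0.21 to -0.085) and the median -0.19. The 22 replication and 13 mitosis members with at least 100 fragments there had medians of -0.17 and -0.070. All gene bodies over that floor had a median of 0.017. Without own peaks all gene bodies had a median of 0.067, and 14.5% of autosomal and 25.9% of X-linked ones were higher. There the replication bodies reversed to a sum of 0.016 and a median of 0.0058, with 2 higher. Single values that reversed in this sense were the Mcm5 promoter in thinned cells (0.015), the Gins2 body beyond start sites (0.35), and without own peaks the bodies of Gins2 (0.10), Mcm7 (0.19) and E2f2 (0.0058). Values of the other sign outside an interval that held 0 were the Orc6 promoter in short fragments (0.077), beyond start sites the bodies of Mcm2 (0.10), Mcm6 (0.071), Cdt1 (0.18), Pole (0.17) and Cdc20 (0.21), and without own peaks those of Mcm2 (0.063), Mcm6 (0.044) and Ube2c (0.28).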
